A study of Mus musculus with 16 samples.

Results

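Peroxiredoxins are thiol peroxidases, and their mRNAs were followed here in exosomes and in MC/9 cells, a mouse mast cell line, under normal culture and under oxidative stress. The members were the probe sets whose single annotated gene symbol was one of the 6 symbols Prdx1 to Prdx6. This gave 7 of the 45037 probe sets tested, and 3 of the 18193 genes with a probe set of their own symbol: 2 probe sets of Prdx2, 1 of Prdx3 and 4 of Prdx4. The annotation used gave Prdx1 only together with Gm21399, a second symbol, on 5 probe sets, which are described apart from the members, and named Prdx5 and Prdx6 on no probe set, so that both are not analysed here.

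The study compared the RNA of exosomes, the small vesicles that cells release, with the RNA of the cells, and asked whether hydrogen peroxide (H2O2) changed either of them. There were 16 arrays in 4 groups of 4: exosomes from normal culture (norm exo), exosomes from cultures given 125 µM H2O2 for 24 h (oxi exo), MC/9 cells from normal culture (norm cell) and MC/9 cells of the H2O2 condition (oxi cell). The descriptions in the labels have the cells of both conditions as recipients of exosomes of that condition, whereas the study's text uses them as the cells that released the exosomes, and this was not settled here. All groups share 1 cell line, grown with fetal bovine serum and rat T-cell culture supplement that had been ultracentrifuged to remove their own exosomes, and the exosomes had passed a 0.22 µm filter and were pelleted at 120000 g for 70 min. It is not stated for all replicates that they were separate cultures, so the p-values measure the spread between these arrays, which may be technical.

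Peroxiredoxins reduce H2O2 with a cysteine of their active site, which is oxidised in each cycle and is then restored, in most members, by thioredoxin. Prdx1 and Prdx2 encode cytosolic enzymes, Prdx3 the mitochondrial enzyme, and Prdx4 the enzyme of the endoplasmic reticulum, which also passes oxidising equivalents to protein disulfide isomerases and can be secreted. Prdx5 and Prdx6 encode further members of other catalytic types. Mast cells make H2O2 when their IgE receptor is engaged, and peroxiredoxins are among the enzymes that remove it.

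The sequence before the annotated start of each gene was searched for the core of the antioxidant response element, TGANNNNGC, which NRF2 binds, and for the AP-1 element TGACTCA, on both strands. The 250 bases upstream of Prdx1, and of the members with a called change in cells or exosomes, Prdx2 and Prdx4, are given 5' to 3' as in RefSeq (build GRCm38.p6), with matches in capitals.
Prdx1 (chr4:116685349-116685598, plus strand): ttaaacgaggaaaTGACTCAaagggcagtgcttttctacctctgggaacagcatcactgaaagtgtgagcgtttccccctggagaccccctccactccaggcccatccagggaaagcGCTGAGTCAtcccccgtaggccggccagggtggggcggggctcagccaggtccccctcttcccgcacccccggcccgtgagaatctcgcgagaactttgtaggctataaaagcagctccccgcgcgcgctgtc
Prdx2 (chr8:84969372-84969621, plus strand): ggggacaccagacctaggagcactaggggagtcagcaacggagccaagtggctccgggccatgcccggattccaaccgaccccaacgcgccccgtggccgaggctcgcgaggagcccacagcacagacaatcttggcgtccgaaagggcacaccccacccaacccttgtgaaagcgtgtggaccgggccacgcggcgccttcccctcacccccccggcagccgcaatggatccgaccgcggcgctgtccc
Prdx4 (chrX:155338461-155338710, minus strand): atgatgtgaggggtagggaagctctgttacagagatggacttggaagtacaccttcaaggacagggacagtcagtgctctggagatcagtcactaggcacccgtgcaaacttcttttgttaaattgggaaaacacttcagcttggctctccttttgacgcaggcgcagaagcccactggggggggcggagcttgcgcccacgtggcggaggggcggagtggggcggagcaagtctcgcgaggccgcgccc
The Prdx1 window held 1 match to TGANNNNGC and 2 to TGACTCA, and the former overlapped 1 of the latter. The windows of Prdx2, Prdx4 and Prdx3 (not printed) held none of either. Among 32851 mouse windows of the same length, 35.2% held TGANNNNGC and 4.46% held TGACTCA. A match describes letters only.

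Values are MAS5.0 signals, which summarise the brightness of the probes of a probe set on a linear scale, and which the authors scaled to a mean of 100 per array after the lowest and highest 2% of its signals were set aside. Signals of different probe sets are not on a common scale and are compared only with themselves. The background of an array was the level under which 95% of 211 probe sets of other tissues, such as sensory receptor, lens and milk genes, lay on it. It was 212 ± 19.8 (SD, n = 4) for norm exo and 241 ± 13.7 for oxi exo, but 13.2 ± 1.64 for norm cell and 10.8 ± 0.843 for oxi cell, and spiked controls were 17.3 times brighter in norm exo than in norm cell and 20.8 times brighter in oxi exo than in oxi cell. The correlation between replicate arrays over all probe sets was 0.533 to 0.625 in the exosome groups and 0.913 to 0.925 in the cell groups, so that a change of a given size was estimated with less precision in exosomes. Among 9 mast cell markers with a probe set, 9 were above background on all 4 arrays in both cell groups, 6 in norm exo and 2 in oxi exo, and in no group was any of the 4 erythroid or the 2 B lymphocyte markers. Of 5 T lymphocyte markers 1, Zap70, was above it in every group but norm cell, and of 6 macrophage markers at most 2 in any group.

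**Figure D1:**
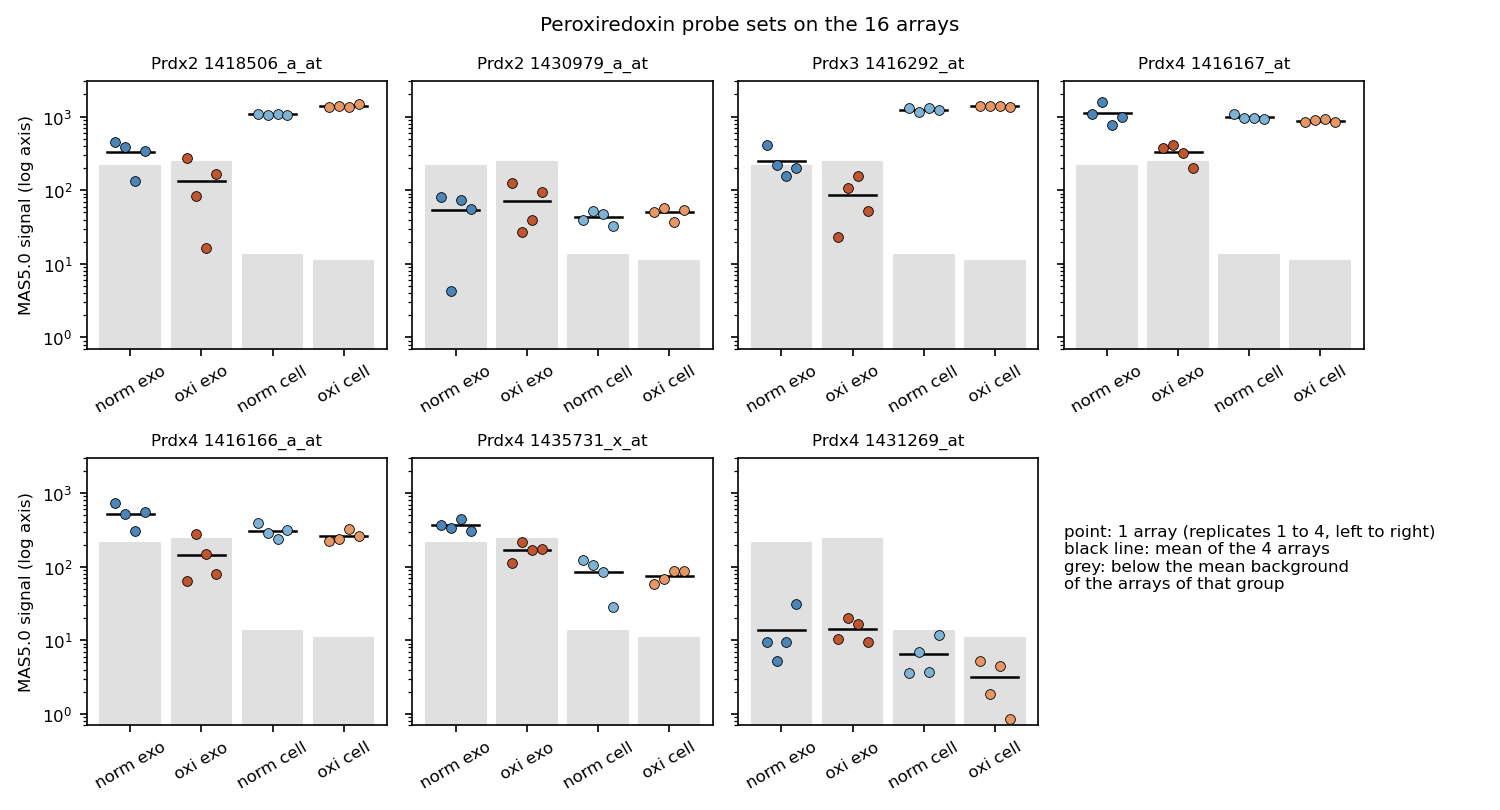
MAS5.0 signal (vertical log axis) of the 7 probe sets of Prdx2, Prdx3 and Prdx4 on each of the 16 arrays, in the 4 groups; points are arrays in the order of their replicate number, black lines are means, and grey marks values under the mean background of the group. The cell signals of Prdx2 1418506_a_at, Prdx3 and Prdx4 1416167_at are close together at 832 to 1479.5, and those of the exosomes are spread. In oxi exo the signals of Prdx2 1418506_a_at and Prdx3 mostly lie in the grey, while 3 of the 4 of Prdx4 1416167_at lie above it.

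Prdx2, the cytosolic enzyme, was higher in cells of the H2O2 condition. Its brighter probe set, 1418506_a_at, had signals of 1097, 1063, 1079.7 and 1037 on the norm cell arrays and of 1357, 1384, 1360.4 and 1479.5 on the oxi cell arrays. All 4 arrays of oxi cell were above all 4 of norm cell, and the 2 groups had coefficients of variation of 2.40% and 4.12%. The log2 difference was 0.38 (standard error 0.06, 95% interval 0.26 to 0.51, adjusted p = 0.00143), a rise of 30.5%. The median of all probe sets was -0.15 in this comparison, and it was -0.09 among the 22818 with a mean above background. Signals are relative to the mean of the array, and why the median lay under 0 was not tested. Against the median of all probe sets Prdx2 was 0.53 higher on the log2 scale. The call was kept with quantile normalization, with scaling to the spiked controls and with any replicate left out, and was lost with the methods' own paired test, on linear (adjusted p = 0.116) and on log2 signals (adjusted p = 0.121), over a range of 2.67e-05 to 0.121 among 11 alternatives, from which the floor at background is left out because it ties values.

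In exosomes Prdx2 gave signals of 452, 388, 135 and 344 in norm exo, of which 3 of 4 were above background, and of 273, 84.6, 16.3 and 164 in oxi exo, of which 1 was. Each oxi exo array was below the norm exo array of the same number, but the groups overlapped. The log2 difference of -1.76 (standard error 0.43, 95% interval -2.68 to -0.84) missed the threshold, with an adjusted p of 0.0515. It passed it when dim probe sets were left out of the test (adjusted p = 0.0286) and with 100 added to each signal (adjusted p = 0.0175), and over 11 alternatives the adjusted p ran from 0.0175 to 0.652. In order of deposited signal the groups were oxi cell, norm cell, norm exo and oxi exo, and the last 2 were those that did not differ beyond the threshold. With quantile normalization norm exo and norm cell did not differ beyond it either (adjusted p = 0.112).

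The second probe set of Prdx2, 1430979_a_at, was dim. Its signals were 32.2 to 57.4 in the 8 cell arrays, above background on each, and it was above background on none of the 8 exosome arrays. The difference between oxi cell and norm cell was 0.22 (95% interval -0.19 to 0.63, adjusted p = 0.549), in the same direction as the brighter probe set in 3 of 4 pairs.

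Prdx3, the mitochondrial member, had 1 probe set, 1416292_at. Its signals were 1296, 1173, 1301 and 1227 for norm cell, and for oxi cell they were 1405, 1378, 1392 and 1361. The groups did not overlap and the order was the same in all 4 pairs, but the difference was small, 0.15 on the log2 scale (standard error 0.05, 95% interval 0.04 to 0.26), and did not pass over all probe sets (adjusted p = 0.104). Relative to the median of all probe sets it was 0.30. It passed when the arrays were scaled to the spiked controls (0.45, adjusted p = 0.000325) and, of the other alternatives, only with signals floored at background, and over the 11 without the floor the adjusted p reached 0.516. In norm exo the signals were 408, 223, 154 and 202, with 2 of 4 above background, and in oxi exo 23.2, 108, 157 and 51.8, with none above it. No fold is given for the exosomes because norm exo, as a mean of log2 signals, did not exceed the background of oxi exo, and the fit gave an adjusted p of 0.213.

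Prdx4, the member of the endoplasmic reticulum, gave the clearest signal in exosomes and fell in those of the H2O2 condition. The probe set of highest mean, 1416167_at, had signals of 1100.4, 1561, 774 and 986 in norm exo, all above background, and of 371, 413, 324 and 201 in oxi exo, of which 3 were. Every array of oxi exo was below every array of norm exo. The log2 difference was -1.76 (standard error 0.24, 95% interval -2.26 to -1.26, adjusted p = 0.000496), so that the signal was 3.38-fold lower in oxi exo. The call was kept in 9 of 11 alternatives, among them quantile normalization (-1.63, adjusted p = 0.0264), scaling to the spiked controls (-1.73, adjusted p = 0.00425) and each replicate left out (-1.93 to -1.58). The methods' paired test with adjustment over all probe sets lost it, with an adjusted p of 0.465 on linear and 0.516 on log2 signals. In bulk RNA of vesicles, fewer vesicles that carry a transcript and fewer copies per vesicle cannot be told apart.

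In cells the same probe set moved little. Its signals were 1081, 954, 952 and 930.0 for norm cell and 847, 906, 930.0 and 832 for oxi cell, lower in all 4 pairs and touching at 930.0. The log2 difference was -0.15 (95% interval -0.29 to -0.02, adjusted p = 0.169), close to the median of all probe sets. It was 0.14 after scaling to the spiked controls (adjusted p = 0.194) and -0.17 after quantile normalization (adjusted p = 0.0332), so that in cells its direction was not settled. As deposited, the order of signal was norm exo, norm cell, oxi cell and oxi exo. In it norm exo did not differ from norm cell, nor norm cell from oxi cell, beyond the threshold. The place of norm exo depended on the scaling, since norm exo minus norm cell was -3.98 with the spiked controls and 1.37 with quantile normalization.

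A second probe set of Prdx4 fell with it. This probe set, 1416166_a_at, had 723, 519.8, 307 and 551 in norm exo and 64.4, 281, 151 and 78.8 in oxi exo, where 4 and 1 arrays were above background and the groups did not overlap. The log2 difference was -2.05 (standard error 0.41, 95% interval -2.92 to -1.18, adjusted p = 0.0114), but it rests on oxi exo signals mostly under background, so no fold is given, and with signals floored at the background of their array it was -0.97. The call was lost without replicate 1 (adjusted p = 0.0955) and without replicate 4 (adjusted p = 0.0671), within a range of 0.00105 to 0.659 over 11 alternatives. In cells it had 393, 286, 237 and 319 for norm cell and 226, 235, 324 and 263 for oxi cell, which overlapped (log2 difference -0.23, 95% interval -0.55 to 0.097, adjusted p = 0.416), and it was called lower there only without replicate 3 (adjusted p = 0.0238).

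The probe set 1435731_x_at, whose suffix marks probes that can also match other transcripts, had 373, 333, 452 and 307 in norm exo and 112, 216, 171 and 174 in oxi exo, none of the latter above background. The groups did not overlap and norm exo exceeded oxi exo by at least 1.50-fold, where the bound sets the mean log2 signal of norm exo against the background of oxi exo, but the difference did not pass (adjusted p = 0.106). In cells it had 28.6 to 122 for norm cell and 58.6 to 88.6 for oxi cell, with a log2 difference of -0.0084 (95% interval -0.72 to 0.70). The probe set 1431269_at was above background on no array of any group, with signals of 0.841 to 31.0, and gave no usable value.

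In the exosome comparison 2 of the 7 probe sets, both of Prdx4, were called lower and none higher, where 1.70% of all probe sets were called lower and 0.0311% higher. Among the 3646 probe sets with a mean above background in these 8 arrays, 18.3% were called lower and 0.137% higher, so that a fall was frequent among transcripts seen in exosomes. The median log2 difference was -1.76 over the 7 probe sets, 0.06 over all and -0.17 over the 3646 (quartiles -0.91 and 0.22). In the cell comparison 1 of the 7, Prdx2 1418506_a_at, was called higher and none lower, where 4.31% of all were called higher and 5.51% lower, and 8.45% and 10.6% of the 22818 with a mean above background. The median was -0.01 over the 7, -0.15 over all and -0.09 over the 22818.

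Other measures were compared between the exosome groups. The summed signal of the 9 mast cell markers was 3912 to 6436 in norm exo and 1558 to 2247 in oxi exo, without overlap, and Ms4a2, Cpa3, Hdc and Cma1 were above background on all 4 arrays in norm exo and not in oxi exo. Kit, Tpsb2 and Mitf were not above it in either. Gapdh, whose 3' signal over its 5' signal is a measure of RNA integrity, had a ratio of 1.43 to 1.77 for norm exo and 1.48 to 2.33 for oxi exo, which overlapped, and of 0.823 to 0.884 for the cells. The same ratio of actin was 3.81 to 6.55 for norm exo and 2.77 to 4.48 for oxi exo, with means of 5.35 and 3.86. The part of these in the fall of Prdx4 was not tested.

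**Figure D2:**
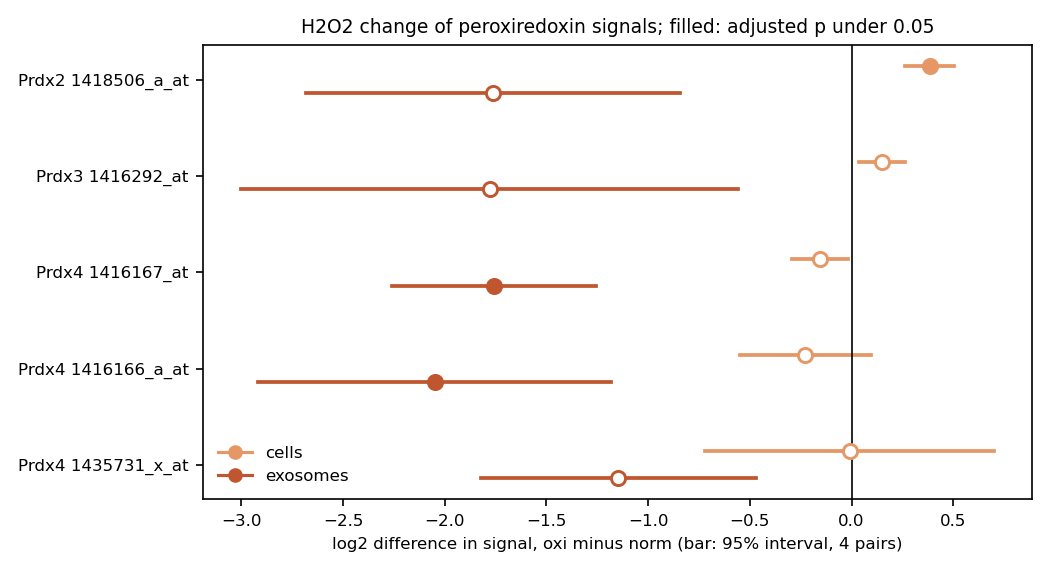
Log2 difference in signal, H2O2 minus normal condition (horizontal axis), in cells and in exosomes for 5 probe sets of Prdx2, Prdx3 and Prdx4. They are the members above background on any norm exo array. Prdx2 1430979_a_at and Prdx4 1431269_at, above background on no exosome array, are left out, and their exosome differences were 0.79 and 0.28. Bars are 95% intervals over 4 pairs and filled points passed an adjusted p of 0.05. Prdx2 at 0.38 in cells and the first 2 probe sets of Prdx4 at -1.76 and -2.05 in exosomes are filled, and the intervals of exosomes are wider than those of cells.

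Whether H2O2 changed the exosomes and the cells differently was tested on the 8 differences within same-numbered pairs. Same-numbered arrays did not deviate together (correlations of -0.02 to 0.02), so the pairs rest on the number alone and their order is a description. For Prdx4 1416167_at the differences were -1.57, -1.92, -1.26 and -2.29 in exosomes and -0.35, -0.08, -0.03 and -0.16 in cells. The exosome change was lower by 1.60 on the log2 scale (log2 difference of changes -1.60, standard error 0.27, 95% interval -2.19 to -1.02, adjusted p = 0.0142), and the pairs did not overlap. It was lost with quantile normalization (adjusted p = 0.131), with the methods' test on linear (adjusted p = 0.0859) and on log2 signals (adjusted p = 0.0607), and without replicate 1 (0.0875), 2 (0.136) or 4 (0.0715) as adjusted p. For Prdx2 1418506_a_at they were -0.73, -2.20, -3.05 and -1.07 in exosomes and 0.31, 0.38, 0.33 and 0.51 in cells. Prdx2 thus rose in every cell pair and was lower in every exosome pair, with a difference of -2.15 (standard error 0.45, 95% interval -3.14 to -1.15, adjusted p = 0.0407). Since 3 of the 4 oxi exo signals were under background, its size is uncertain, and with the floor it was -0.88, of which the exosome change was -0.50. This was lost without the replicate block (adjusted p = 0.240), with quantile normalization (adjusted p = 0.110), with the methods' test on log2 signals (adjusted p = 0.184) and with any replicate left out, where the adjusted p was 0.0948, 0.243, 0.0975 and 0.130 without replicates 1 to 4. These 2 of 7 probe sets were called lower and none higher, where 1.47% of all probe sets were called lower and 0.0933% higher. No share among probe sets above background was taken for this comparison. In the exosome comparison that share was 18.3% called lower, against 1.70% of all, so the count of 2 is not read as more than is usual among transcripts seen in exosomes.

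Between exosomes and cells of normal culture the members differed in direction. Prdx2 1418506_a_at was 3.56-fold lower in norm exo than in norm cell (log2 difference -1.83, standard error 0.28, adjusted p = 0.000336), and Prdx3 5.41-fold lower (-2.44, standard error 0.25, adjusted p = 4.18e-05), with all exosome arrays below all cell arrays. With the floor these log2 differences were -1.62 and -2.26, as 3 and 2 of the 4 norm exo arrays were above background. Prdx4 1416166_a_at was 1.65-fold higher in norm exo (0.73, standard error 0.21, adjusted p = 0.0109) and 1435731_x_at 4.84-fold higher (2.28, standard error 0.35, adjusted p = 0.000332), whereas 1416167_at was at 0.13 (95% interval -0.31 to 0.58, adjusted p = 0.561). Of the 7 probe sets 2 were called higher and 2 lower, where 57.7% of all were called higher and 19.0% lower, and the median was 0.13 over the 7 and 2.23 over all.

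These directions depended on the scaling. The median of all probe sets was 2.23 as deposited, 0.16 after quantile normalization and -1.88 after scaling to the spiked controls. With the last, Prdx4 1416166_a_at and 1435731_x_at turned to -3.38 and -1.83 and 1416167_at to -3.98, while with quantile normalization 1416167_at was 1.37 higher in norm exo (adjusted p = 4.61e-05). Prdx2 and Prdx3 stayed lower in exosomes under both, at -0.80 and -1.50 with quantile normalization, where Prdx2 missed the threshold (adjusted p = 0.112), and at -5.94 and -6.54 with the spiked controls. Among the 2077 probe sets above background on all 8 arrays, where the median was -0.16, Prdx4 1416167_at lay at the 55.6th, 1416166_a_at at the 64.8th and 1435731_x_at at the 82.9th percentile.

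Under H2O2 the signal of Prdx4 1416167_at in exosomes was below that in cells. Prdx4 1416167_at was 2.78-fold lower in oxi exo than in oxi cell (log2 difference -1.47, standard error 0.25, adjusted p = 0.000627, but -0.09 with quantile normalization, adjusted p = 0.864), and the difference was -1.40 with the floor. For 1416166_a_at the log2 difference was -1.10 (standard error 0.39, adjusted p = 0.0259), with 1 of 4 oxi exo arrays above background, and was -0.019 with the floor, so that a difference was not measurable above background. It was called in 5 of 11 alternatives and was lost, among others, with quantile normalization (adjusted p = 0.0780) and without replicate 1 (adjusted p = 0.0993), 3 (0.0694) or 4 (0.0970). Prdx2 1418506_a_at was lower in oxi exo (log2 difference -3.98, standard error 0.56, adjusted p = 0.000213), with 1 of 4 oxi exo arrays above background and a difference of -2.50 with the floor, and Prdx3 at least 5.74-fold lower (adjusted p = 4.89e-05). The 2 probe sets called higher, 1435731_x_at and 1431269_at, were above background on none of the oxi exo arrays, so no fold is given. In all, 4 of 7 were called lower and 2 higher, where 19.4% of all probe sets were called lower and 60.8% higher, and the medians were -1.10 over the 7 and 2.67 over all. The comparisons of exosomes with cells share their arrays with those of the H2O2 change.

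**Figure D3:**
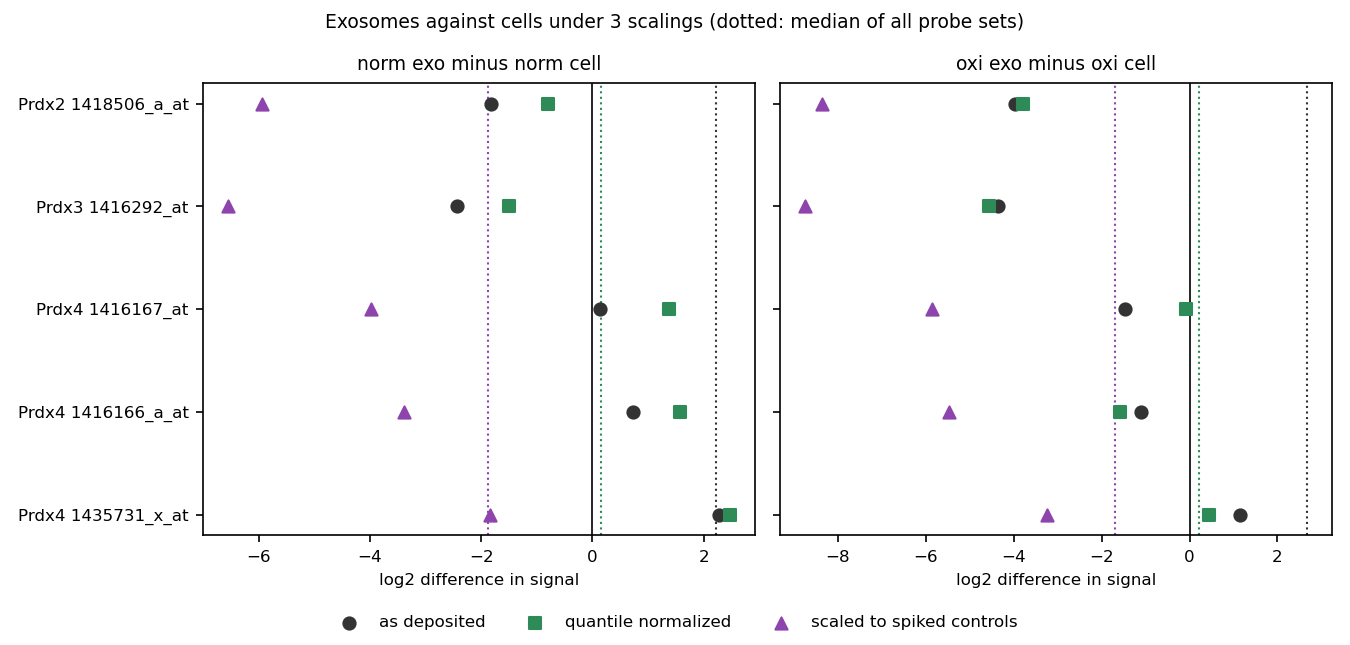
Log2 difference in signal of exosomes minus cells (horizontal axis) in normal culture, left, and in the H2O2 condition, right. Shown are the 5 member probe sets above background on any norm exo array. The scalings are as deposited, quantile normalized and scaled to the spiked controls. Dotted lines are the median of all probe sets under each scaling. Prdx2 and Prdx3 lie below 0 under each, while Prdx4 1416167_at in normal culture runs from -3.98 to 1.37.

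The 5 probe sets annotated with both Prdx1 and Gm21399 were bright in cells. Signal from the 2 symbols cannot be told apart on them, and values are given per probe set. The brightest, 1436691_x_at, had 5683, 5744, 5924 and 6205 for norm cell and 5404, 5719, 6234 and 6522 for oxi cell, a log2 difference of 0.02 (95% interval -0.095 to 0.13, adjusted p = 0.897). The others differed between the cell groups by 0.09 to 0.12 on the log2 scale, with none called (adjusted p from 0.219 to 0.565). After scaling to the spiked controls 1416000_a_at was 0.39 higher in oxi cell (adjusted p = 0.00116).

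As deposited, all 5 were called lower in exosomes than in cells in both conditions. Of all probe sets 19.0% were called lower in normal culture and 19.4% under H2O2. The sizes that follow hold for the deposited scale only. Scaling to the spiked controls moved the median of all probe sets by -4.11 in normal culture and by -4.38 under H2O2. The difference of 1436691_x_at was -4.06 in normal culture (adjusted p = 2.19e-06) and -4.48 under H2O2 (adjusted p = 7.51e-06). On the oxi exo arrays 1416000_a_at, 1433866_x_at and 1437014_x_at were above background on none, and were at least 18.6-fold, 9.32-fold and 1.95-fold lower there than in oxi cell. Between the exosome groups 1416000_a_at, with 246, 209, 134 and 202 in norm exo and 50.7, 21.6, 20.9 and 56.7 in oxi exo, was called lower (adjusted p = 0.0384), but only 2 norm exo arrays were above background, and no fold is given. The call was lost with any replicate left out (adjusted p from 0.0688 to 0.187). None of the others was called between the exosome groups. The brightest, 1436691_x_at, above background on 3 of 4 arrays in both groups, was at -0.41 (adjusted p = 0.726). The probe sets 1434731_x_at and 1433866_x_at were both at -0.24 (adjusted p = 0.876 and 0.893). For 1437014_x_at, above background on no exosome array, the adjusted p was 0.321.

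Of the 31 partner genes listed for peroxiredoxins, 30 had a probe set, of which 25 were above background on all 4 arrays in norm cell and 6 in norm exo. In cells 7 of 30 were called higher under H2O2, 1 lower and 22 not, with a median log2 difference of 0.07. Over all probe sets 4.31% were called higher and 5.51% lower, and among the 22818 with a mean above background 8.45% and 10.6%. The count of 7 was 16 with scaling to the spiked controls, 0 with the methods' paired test and 4 without replicate 4. Among the 6 genes of thioredoxin recycling 3 rose and 1 fell. Txnrd1, the cytosolic thioredoxin reductase, had 329.6 to 356 for norm cell and 509 to 652 for oxi cell, a log2 rise of 0.69 (standard error 0.07, adjusted p = 0.00021). Txn1, the cytosolic thioredoxin that reduces Prdx2, rose by 0.22 (adjusted p = 0.0300), and Txn2, the mitochondrial thioredoxin that reduces Prdx3, by 0.31 (adjusted p = 0.0303). Txnip, which binds and inhibits thioredoxin, had 2122 to 2466 for norm cell and 511 to 1066 for oxi cell, and fell (log2 difference -1.43, standard error 0.14, adjusted p = 0.000166).

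The other partners that rose in cells did so by 0.27 to 0.36. Erp44, which retains Prdx4 in the secretory pathway, rose by 0.36 (adjusted p = 0.00206), as 1 of the 8 genes of oxidative folding, and P4hb, a protein disulfide isomerase that Prdx4 oxidises, was at 0.03 (95% interval -0.08 to 0.14). Of the 7 other enzymes that make or remove H2O2, Sod2, the mitochondrial superoxide dismutase, rose by 0.34 (adjusted p = 0.00285) and Gpx1, a glutathione peroxidase, by 0.30 (adjusted p = 0.00298), while Sod1, the cytosolic dismutase, was at 0.05 (95% interval -0.16 to 0.26). Of 4 glutaredoxins Glrx5, of mitochondrial iron-sulfur cluster assembly, rose by 0.27 (adjusted p = 0.00779). None of the 4 genes of cysteine repair and sestrins was called, and their median log2 difference was 0.08. Sesn1, of highest mean signal among them, was at -0.28 (95% interval -0.61 to 0.05, and 0.01 with the spiked controls). Gstp1, the glutathione transferase that reactivates Prdx6, was at 0.08 (95% interval -0.04 to 0.21).

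In exosomes none of the 30 was called higher under H2O2 and 2 were called lower, with a median log2 difference of -0.41. Over all probe sets 1.70% were called lower and 0.0311% higher, and among the 3646 with a mean above background 18.3% and 0.137%. P4hb had 1818.8, 1605, 1380.0 and 1398 in norm exo and 493, 603, 748 and 493 in oxi exo (log2 difference -1.42, standard error 0.21, adjusted p = 0.00102). Sod1 had 1318, 1793, 904 and 969 and then 585, 819, 440.2 and 246 (-1.33, standard error 0.22, adjusted p = 0.00270). Both were above background on all 8 exosome arrays and both groups were apart. With quantile normalization neither was called (-0.75 and -0.91, adjusted p = 0.137 and 0.213), nor with the methods' paired test. The difference between the changes in exosomes and in cells was called lower for 5 of the 30 partners, where 1.47% of all probe sets were called lower and 0.0933% higher. Of these partners P4hb (-1.45, adjusted p = 0.0107) and Sod1 (-1.38, adjusted p = 0.0276) were above background on all oxi exo arrays. Txn1 (-0.94, adjusted p = 0.0380) was so on 2 of 4, and Erp44 and Gpx1 on none, so that no size is given for the last 2. This count of 5 was 2 without the replicate block, 0 with quantile normalization, and 1, 0, 2 and 0 without replicates 1 to 4. No share among probe sets with a mean above background was taken for it.

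**Figure D4:**
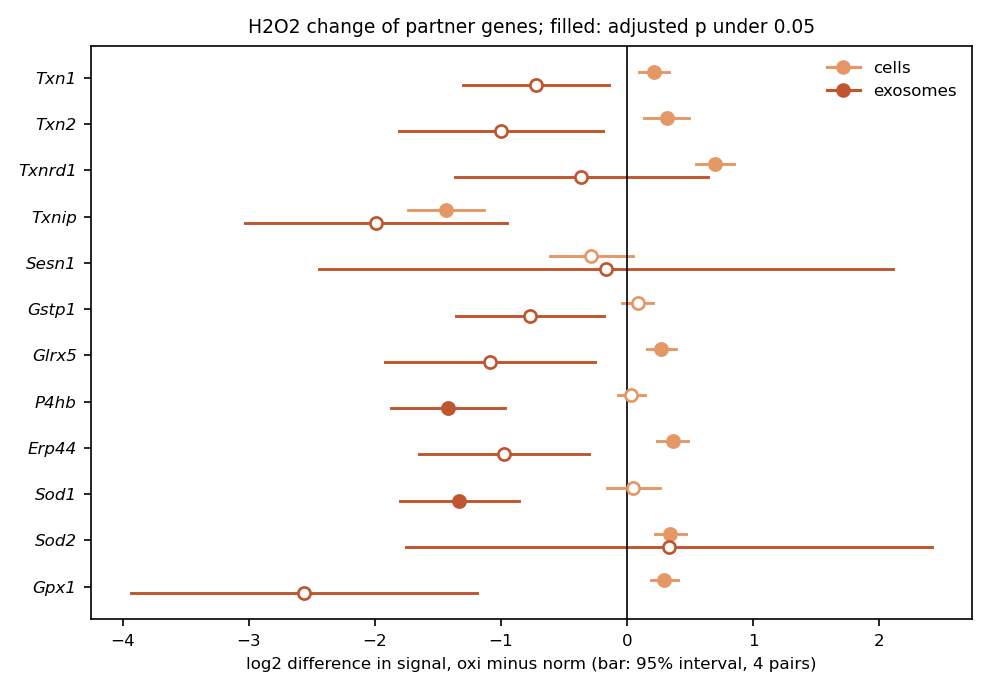
Log2 difference in signal between the H2O2 and the normal condition (horizontal axis) for the 12 named partner genes in cells and in exosomes; bars are 95% intervals over 4 pairs and filled points passed an adjusted p of 0.05. In cells Txnrd1 lies farthest to the right at 0.69 and Txnip to the left at -1.43, and in exosomes P4hb and Sod1 are filled at -1.42 and -1.33.

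Over the 16 arrays, the log2 signals most like those of each member were found by Pearson correlation among 18015 probe sets above the median signal, as a description. The pattern of Prdx2 was nearest to Agpat5 (r = 0.988), Cox7a2l (0.982) and Mcm7 (0.979), and that of Prdx3 to Bud31 (0.990), Capzb (0.989) and Sin3b (0.988). The pattern of Prdx4 1416167_at was nearest to Dnpep, an aminopeptidase (0.979), Rpl13a, a ribosomal protein (0.979), and Prelid1, a mitochondrial lipid carrier (0.978). Dnpep had mean signals of 1054 for norm exo and 174 for oxi exo, and of 703 and 736 for the cells. The 16 arrays share the difference in scale between exosome and cell arrays, which enters each of these values.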

How the data were processed

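The members, gene lists, tests and alternatives were chosen with earlier results of these data known. RNA was hybridised to Affymetrix mouse arrays, whose 45101 probe sets are those of the array named in the labels and not of the smaller one named in the study's methods. The deposited values are intensity values on a linear scale (MAS5.0 signals, made by the authors in GCOS 1.2 per the submitters' processing notes) scaled per array to a trimmed mean of 100. Detection calls were not used here. Each array measures every probe set, so the number of arrays, 4 per group, limits the precision.

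The tests covered 45037 probe sets, without 64 controls, and the platform annotation gave 1 symbol for 34945 of them, several for 932 and none for 9160. Differences are from limma 3.58.1 (R 4.3.3; lmFit, eBayes with trend) on log2 signals with no pseudocount or filter, blocked by replicate number since the study's methods name a paired test, and Benjamini-Hochberg adjustment over all probe sets at 0.05. The difference between changes used the 8 within-pair differences. Background used 211 probe sets of 181 genes. Casein genes were taken from the prefix Csn and kinases and signalosome genes of that prefix were left out. A probe set not above background on any array of 1 group got a fold of at least N against that background. The genes named were all members, the 3 genes of most similar pattern to each, and of the partners the highest in each role and those called in cells, with 1 probe set per gene, of highest mean signal. The fits were tested on simulated data. Tables and figures used matplotlib 3.10.9, pandas 2.3.3, numpy 2.4.6 and scipy 1.17.1 under Python 3.11.15.

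The alternatives left out the block or each replicate number in turn, normalized by quantiles, scaled to 9 spiked control probe sets, kept probe sets over the median signal, added 100 before log2, floored signals at background, or ran the methods' paired test (linear or log2 signals). The floor over all probe sets gave tied values with no spread to estimate, so it was run on those above background on 4 or more arrays, a choice made after seeing the data.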

Additional observations from a re-analysis of the deposited data

Results flagged for a closer look

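The test of the difference between the within-pair changes under H2O2 in exosomes and in cells passed for Prdx2 1418506_a_at (-2.15 on the log2 scale, adjusted p = 0.0407), for Prdx4 1416167_at (-1.60, adjusted p = 0.0142) and for 1416000_a_at, annotated with both Prdx1 and Gm21399 (-2.61, adjusted p = 0.00443). The last was above background on no oxi exo array and on 2 of 4 norm exo arrays and was 0.0039 with signals floored at background, so that a difference is not established for it, and Prdx2 was at -0.88 with the floor.

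An array stood apart from the others of its group in 3 of 48 groups tested, where chance gives about 1 in 20. Replicate 1 of norm cell had 1081 for Prdx4 1416167_at, and the next highest was 954. Replicate 4 of norm exo had 31.0 for Prdx4 1431269_at, and the next was 9.61, both under background. Replicate 3 of oxi exo had 88.1 for 1437014_x_at of Prdx1 and Gm21399, and the next was 8.63, both under background.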

How the results depend on the processing

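Prdx3 was called lower in exosomes than in cells in 11 of 11 alternatives with the floor left out, in both conditions, and Prdx2 in 11 under H2O2 and 10 in normal culture. The count called higher in cells (1) was 2 with scaling to the spiked controls and with the floor, and 0 with the methods' paired test (both forms); that called lower (0) was 1 with quantile normalization and 0 to 1 with a replicate left out. The count lower in oxi exo (2) was 4 with the filter and with log2(signal + 100), 0 with both paired tests, and 1 to 2 with a replicate left out. For norm exo against norm cell, the count higher (2) was 0 with the spiked controls and 1 with the linear paired test, and that lower (2) was 1 with quantile normalization and 7 with the spiked controls. For oxi exo against oxi cell, the count higher (2) was 0 with quantile normalization and with the spiked controls, 1 with the filter, with log2(signal + 100) and with the linear paired test, and 1 to 2 with a replicate left out, and that lower (4) was 2 with quantile normalization. For the difference between changes, the count lower (2) was 1 without the replicate block and with the linear test, 0 with quantile normalization and the log2 test, and 0 to 1 with a replicate left out.

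Signs turned as follows, on the log2 scale. In cells under H2O2, scaling to the spiked controls gave 0.14 for Prdx4 1416167_at, 0.070 for 1416166_a_at, 0.29 for 1435731_x_at (quantile 0.068; replicates left out -0.56 to 0.34) and 0.013 for Sesn1. With a replicate left out, the ranges that crossed 0 were, in cells under H2O2 -0.0023 to 0.046 for 1436691_x_at, -0.0046 to 0.22 for 1437014_x_at, -0.095 to 0.16 for Sod1, and in exosomes under H2O2 -0.27 to 0.94 for Prdx4 1431269_at, -0.38 to 0.082 for 1434731_x_at, -0.63 to 0.035 for 1433866_x_at, -1.13 to 0.76 for Sesn1, -0.25 to 0.64 for Sod2, and in norm exo against norm cell -0.73 to 0.82 for Prdx2 1430979_a_at, -0.063 to 0.27 for Prdx4 1416167_at, and in oxi exo against oxi cell -0.068 to 0.73 for Prdx2 1430979_a_at, and in the difference between changes -0.091 to 0.94 for Prdx2 1430979_a_at. For norm exo against norm cell, the spiked controls gave -3.98, -3.38, -1.83 and -3.17 for the Prdx4 probe sets 1416167_at, 1416166_a_at, 1435731_x_at and 1431269_at (the last -2.09 with quantile normalization), and Prdx2 1430979_a_at gave 0.074 with log2(signal + 100), 2.32 with the floor and 10.7 signal units with the linear paired test. For oxi exo against oxi cell, the spiked controls gave -4.10 for Prdx2 1430979_a_at, -3.24 for Prdx4 1435731_x_at and -1.94 for 1431269_at, and quantile normalization -1.64 and -1.15 for the first and the last. With the floor, the difference between changes was -0.033 for Prdx2 1430979_a_at and 0.0039 and 0.082 for 1416000_a_at and 1437014_x_at of Prdx1 and Gm21399. For Prdx2 1430979_a_at the floor replaced every exosome value by the background of its array, so its floored values hold no exosome signal. The cause of the other changes was not tested. Scaling alone moved the median of all probe sets by -4.11 in norm exo against norm cell and by -4.38 in oxi exo against oxi cell. The floored values are partly ties, so no p from them is printed, and the counts and calls given with the floor are a description. Same-numbered arrays did not deviate together (correlations of -0.02 to 0.02, none over 0.1), so the numbers do not show pairs in these data. The fit with no replicate block changed the call of 1 member, Prdx2 in the difference between changes, to an adjusted p of 0.240 at the same value of -2.15, and no other.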
